A study of Rattus norvegicus with 50 samples.

Results

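The 50 genes described here encode proteins that copy DNA, switch the cell cycle program on, or build and run the mitotic spindle. They were chosen by symbol for these known roles, with earlier results of these data known. All 50 were found on the array and passed the filter on dim probes, among 25208 genes tested. The genes were divided by the step they serve into 14 replication genes, 3 transcription factors and 33 mitosis genes. Their RNA was measured in the accessory lobe of the lung of 50 male F344 rats, 12 weeks old when exposure began, which breathed either an aerosol of TiO2 P25 nanoparticles at 10 mg/m3 or filtered air. Exposure was nose-only for both groups, for 6 hours a day, 5 days a week over 4 weeks. Lungs were taken at the end of exposure, here D0, and after 3 days (D3), 28 days (D28), 90 days (D90) and 180 days (D180) of rest, from 5 control and 5 exposed rats each time. Each rat was hybridized to its own array with a single dye, and the lobe was taken as a whole, so every value is an average over all its cell types. In such bulk RNA, fewer dividing cells and less RNA per dividing cell cannot be told apart.

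In a cell that is about to divide, E2F factors turn on the genes of DNA synthesis in late G1 and S phase, and complexes that hold B-Myb and FoxM1 turn on the genes of mitosis in G2. Most cells of the adult lung are at rest, and the dividing ones include alveolar type 2 cells, macrophages, endothelial cells and lymphocytes passing through or lodged in the tissue. RNA of mitosis genes is low in resting cells, whereas many replication proteins, such as PCNA and the MCM helicase, are also made or kept outside S phase and some take part in DNA repair.

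Replication and mitosis genes differed in how often certain letters stood in the DNA in front of them. The 250 bases before each gene's start were taken from RefSeq (build GRCr8), where 41 of the 50 genes were matched by symbol, 11 of 14 replication genes, 29 of 33 mitosis genes and 1 transcription factor. They were searched on both strands for the cell cycle homology region TTTGAA, for the CCAAT box (CCAAT), which NF-Y binds, and for E2F letters (TTTGGCGC, TTTCGCGC, TTCCCGCC or TTCGCGCC, which can overlap one another). E2F letters were in 6 of the 11 replication genes (54.5%) and in 1 of the 29 mitosis genes (3.45%), against 2.79% of all 27457 genes in the table. TTTGAA and CCAAT together were in 11 mitosis genes (37.9%) and in 0 replication genes, against 6.32% of all genes. CCAAT alone was frequent in both, at 63.6% of the replication and 72.4% of the mitosis genes against 36.1% overall. A match of letters describes the sequence and was not tested as a binding site. The stretches below are shown for the genes followed in every group, the 3 mitosis and the 3 replication genes with the largest D0 change among those that hold a match. They run 5′ to 3′ on the gene's strand and end at the base before the start, with matches in capitals, in reverse complement where the match is on the other strand.
Top2a, chr10:84473094-84473343, minus strand: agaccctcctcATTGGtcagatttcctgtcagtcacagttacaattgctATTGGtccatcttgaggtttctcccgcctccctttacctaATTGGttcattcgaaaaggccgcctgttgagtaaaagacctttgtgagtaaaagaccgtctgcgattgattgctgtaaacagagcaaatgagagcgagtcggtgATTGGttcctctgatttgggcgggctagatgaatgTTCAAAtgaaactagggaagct
Ccnb1, chr2:33655226-33655475, minus strand: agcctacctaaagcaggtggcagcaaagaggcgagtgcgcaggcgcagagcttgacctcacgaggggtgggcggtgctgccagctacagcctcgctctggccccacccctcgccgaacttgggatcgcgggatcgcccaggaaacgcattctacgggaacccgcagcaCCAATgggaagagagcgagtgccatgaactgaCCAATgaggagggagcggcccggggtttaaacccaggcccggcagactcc
Cdk1, chr20:19265043-19265292, plus strand: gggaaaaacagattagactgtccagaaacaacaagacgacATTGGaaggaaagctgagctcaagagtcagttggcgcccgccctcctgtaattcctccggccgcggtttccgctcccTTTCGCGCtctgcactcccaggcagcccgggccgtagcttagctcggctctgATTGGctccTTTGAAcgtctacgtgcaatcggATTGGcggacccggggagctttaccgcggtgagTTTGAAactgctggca
Mcm5, chr19:13488563-13488812, plus strand: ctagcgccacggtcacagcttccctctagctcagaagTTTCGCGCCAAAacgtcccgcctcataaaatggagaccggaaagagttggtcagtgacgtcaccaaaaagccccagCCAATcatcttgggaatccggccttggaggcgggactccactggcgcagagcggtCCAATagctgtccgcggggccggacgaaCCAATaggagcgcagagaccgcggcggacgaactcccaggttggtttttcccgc
Tyms, chr9:120776084-120776333, minus strand: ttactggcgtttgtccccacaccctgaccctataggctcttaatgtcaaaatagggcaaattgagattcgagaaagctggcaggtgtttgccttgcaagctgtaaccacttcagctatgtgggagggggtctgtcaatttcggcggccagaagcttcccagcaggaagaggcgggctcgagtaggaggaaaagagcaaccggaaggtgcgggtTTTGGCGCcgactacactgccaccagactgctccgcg
Mcm2, chr4:122918095-122918344, minus strand: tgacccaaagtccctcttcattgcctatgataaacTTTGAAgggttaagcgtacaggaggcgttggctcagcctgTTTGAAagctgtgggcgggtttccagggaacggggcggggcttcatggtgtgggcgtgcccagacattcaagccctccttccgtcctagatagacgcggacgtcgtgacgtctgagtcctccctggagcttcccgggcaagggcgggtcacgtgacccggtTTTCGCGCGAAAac
Top2a and Cdk1 hold TTTGAA letters close to the start with CCAAT letters nearby, and Ccnb1 holds CCAAT letters in a pair of places, whereas Tyms and Mcm2 hold E2F letters close to the start. Cdk1 is the 1 mitosis gene with E2F letters as well. Mcm2 holds TTTGAA farther out, and Mcm5 holds CCAAT 3 times beside its E2F letters.

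Values are log2 signals after quantile normalization, and a gene was called changed where it moved at least 1.5-fold with an adjusted p under 0.05 in limma. Levels are compared between rats for the same gene only, because different probes shine differently. Between 44 and 49 of the 50 genes were well above background on at least 3 of the 5 arrays of each group, with the fewest in the D0 controls. Hmmr, a spindle protein gene, was well above background on 0 of 50 arrays and Cenpe, a kinetochore motor gene, on 15, and no gene was saturated. Arrays lay on 7 slides. The D0, D3 and D28 rats shared slides 1 to 4 and the D90 and D180 rats slides 5 to 7, apart from exposed rat 1 of D3, which lay on slide 7, so a difference between an early and a late day cannot be told apart from the slide. The surfactant gene Sftpc and the alveolar gene Ager, which define lung tissue, had group means of 18.86 and 15.39 in the exposed and 18.82 and 15.78 in the control rats of D0, near the top of the scale. Labels do not say whether rats shared cages or processing days, so p-values measure the spread between these rats.

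At the end of exposure, 35 of the 50 genes were higher in exposed than in control rats and 0 were lower, where 4.28% of all tested genes were called and 2.77% were called higher. The median log2 change was 1.15 over the 50 genes and -0.01 over all genes. In 38 of the 50 genes the 5 exposed rats lay above all 5 controls, against 4.76% of all genes. The mitosis genes moved most, with 28 of 33 called and a median of 1.56. Of the replication genes 5 of 14 were called, with a median of 0.47, and of the transcription factors 2 of 3.

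Top2a, the topoisomerase that untangles sister chromatids, read 6.59, 6.65, 6.78, 6.86 and 7.22 in the 5 control rats and 8.42, 8.58, 8.69, 8.95 and 9.17 in the 5 exposed rats. The groups were far apart, and the difference of 1.94 (SE 0.14, adjusted p = 4.8e-14, limma) is a 3.84-fold change. Cdk1, the kinase that drives entry into mitosis, read 9.69, 9.72, 9.93, 9.99 and 10.16 in the 5 control rats and 11.47, 11.55, 11.68, 11.80 and 11.84 in the 5 exposed rats. Its change of 1.77 (SE 0.10, adjusted p = 2.7e-18) again left a wide gap between the groups. The largest change of the 50 belonged to Cdca3, a gene of mitotic entry, at 8.06, 8.13, 8.15, 8.28 and 8.56 in the 5 control rats and 10.04, 10.22, 10.41, 10.64 and 10.73 in the 5 exposed rats. That is 2.17 on the log2 scale (SE 0.15, adjusted p = 1.1e-14), with no overlap. Ki-67, encoded by Mki67 and used as a label of dividing cells in tissue sections, read 9.0, 9.10, 9.52, 9.57 and 9.87 in the 5 control rats and 10.56, 10.57, 10.61, 10.80 and 10.83 in the 5 exposed rats. Controls spread more here than for Cdk1, but every exposed rat was still above them (change 1.26, SE 0.13, adjusted p = 3.9e-10).

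The called mitosis genes came from every role in the list. The cyclins that partner Cdk1 changed by 1.79 (Ccna2), 1.82 (Ccnb1) and 1.85 (Ccnb2). Ube2c, which loads ubiquitin for the anaphase promoting complex, changed by 1.84, and its activator Cdc20 by 0.72. Among the spindle checkpoint kinases, Bub1b changed by 1.77 (well above background in 2 of 5 controls and 5 of 5 exposed rats), Ttk by 1.58 and Bub1 by 1.16. The kinetochore genes Nuf2 and Ndc80 changed by 1.69 and 1.40, and the spindle motors Kif11, Kif20a and Kif2c by 1.77, 1.64 and 1.02. Ect2, which starts the cleavage furrow, and the kinase gene Melk each changed by 1.69. Nusap1, Tpx2, Plk1, Cenpf, Dlgap5 and Prc1, all tied to the spindle, rose by 1.61, 1.48, 1.56, 0.94, 0.75 and 0.67. Cenpe was not well above background in any D0 control, so its fold is only bounded, at least 1.06-fold (adjusted p = 0.018), and Cdca8 (0.98) was well above background in only 1 of them.

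Subunits of the chromosomal passenger complex, to which Cdca8 belongs as well, gave unlike values. Birc5, its survivin subunit, read 7.16, 7.32, 7.35, 7.36 and 7.44 in the 5 control rats and 8.68, 8.79, 8.84, 9.13 and 9.36 in the 5 exposed rats, a clear separation (change 1.63, SE 0.11, adjusted p = 2.0e-15). Aurkb, its kinase subunit, read 9.12, 9.17, 9.56, 9.71 and 9.86 in the 5 control rats and 9.54, 9.63, 10.08, 10.13 and 10.17 in the 5 exposed rats. Those ranges overlap, and the change of 0.43 (SE 0.16, adjusted p = 0.059) did not pass. The other mitosis genes not called at D0 were Aurka (0.39), the cytokinesis genes Kif23 (0.37) and Anln (0.50), whose adjusted p passed but whose change stayed under 1.5-fold, and Hmmr, which was not well above background.

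Changes of the replication genes at D0 ran over a wide range, from 1.89 (Rrm2) to 0.14 (Mcm7). Rrm2, the inducible small subunit of ribonucleotide reductase, read 11.15, 11.18, 11.25, 11.33 and 11.41 in the 5 control rats and 12.90, 12.93, 13.11, 13.32 and 13.51 in the 5 exposed rats. The gap between the groups was wide, and the change of 1.89 (SE 0.13, adjusted p = 4.3e-15) was above the median of the mitosis genes. Its partner Rrm1, the large subunit, changed by 0.23 (SE 0.17, adjusted p = 0.48). The thymidine salvage kinase gene Tk1 rose by 1.13 and the origin licensing gene Cdc6 by 1.51 (well above background in 1 of 5 controls and 5 of 5 exposed rats), while the licensing partner Cdt1 read 0.18 (adjusted p = 0.68). Thymidylate synthase, Tyms, read 0.46 (adjusted p = 0.0063), under the 1.5-fold limit. The dim gene Clspn changed by 0.59 (adjusted p = 0.062) and was not called.

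The 6 subunits of the MCM helicase, which opens DNA at the fork, changed by unequal amounts at D0. Mcm5 read 6.57, 6.84, 6.99, 7.15 and 7.41 in the 5 control rats and 7.97, 7.98, 8.06, 8.21 and 8.50 in the 5 exposed rats, with no overlap and a change of 1.15 (SE 0.13, adjusted p = 3.3e-09). Mcm3 rose by 0.72 and was also called. Mcm4 and Mcm6 changed by 0.47 each and Mcm2 by 0.32, all with adjusted p under 0.05 and under 1.5-fold, and Mcm7 read 0.14 (adjusted p = 0.32). Pcna, the sliding clamp of the polymerase, read 11.47, 11.54, 11.59, 11.67 and 11.70 in the 5 control rats and 11.73, 11.82, 11.89, 11.90 and 11.94 in the 5 exposed rats. The exposed rats all lay above the controls, but by 0.26 on average (SE 0.07, adjusted p = 0.0069). Among the transcription factors, Mybl2, which encodes B-Myb, rose by 1.18 and Foxm1 by 0.65, whereas E2f1 changed by 0.32 (adjusted p = 1.7e-04).

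**Figure D1:**
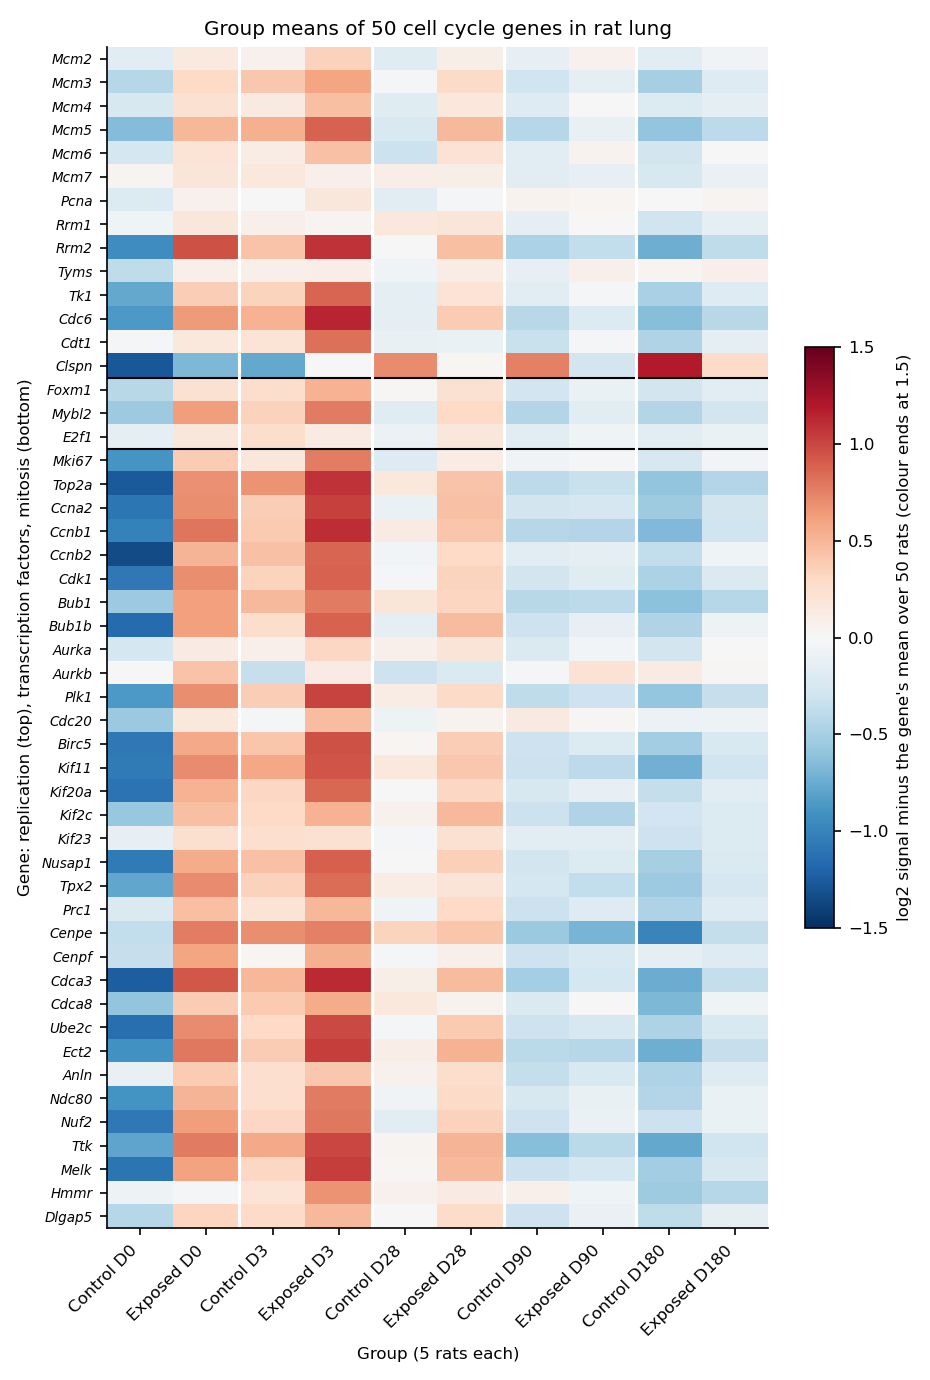
Mean log2 signal of each of the 50 genes in the 10 groups of 5 rats, minus the gene's mean over all 50 rats, with replication genes on top, transcription factors between the black lines and mitosis genes below. The D0 control column is the bluest for most mitosis genes, the exposed D3 column the reddest, and Clspn runs against the other rows at D28 to D180.

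The D0 controls had the lowest mean of the 10 groups over the mitosis genes. A score was formed for each rat as the mean over the 33 mitosis genes of the log2 signal, each gene centered on its mean over all rats. The D0 controls scored -0.83 to -0.61, with all rats below every other group except the D180 controls, whose lowest rat met the highest D0 control at -0.61. The controls of D3, in the same slides, scored 0.20 to 0.38 and those of D28 -0.13 to 0.25. The exposed rats of D0, at 0.40 to 0.70, were above the D3 controls by a narrow margin, and the exposed rats of D3 were highest, at 0.56 to 1.04. The replication score ran over a smaller range, from -0.58 to -0.37 in the D0 controls, through 0.11 to 0.23 in the D3 controls, to 0.41 to 0.66 in the exposed rats of D3. On slide 4 the D3 control exceeded the D0 controls by 0.52 on this score, and the exposed rat of D0 exceeded them by 0.47. The exposed rats of D0 were thus not all above the D3 controls, unlike on the mitosis score. This score includes Clspn, a dim gene that was 2.46 higher in D180 than in D0 controls. The median change of the replication genes between those controls was 0.02 to 0.10 with each rat left out in turn.

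**Figure D2:**
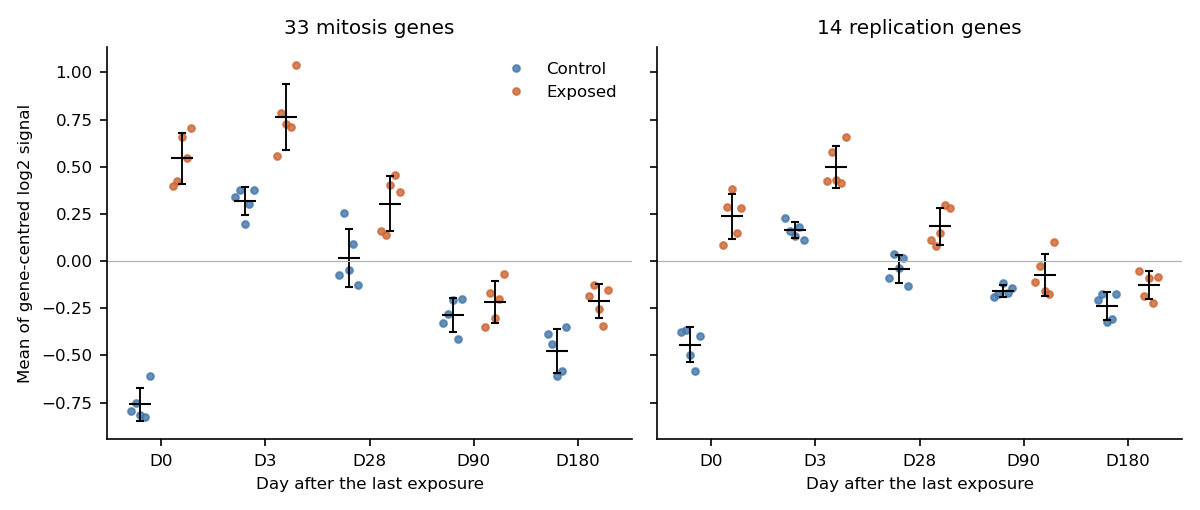
Score of each rat, the mean over the 33 mitosis genes (left) or the 14 replication genes (right) of gene-centered log2 signal, by day after the last exposure. Points are rats, bars are the mean and SD of 5 rats. The D0 control rats sit lowest in both panels and the exposed D3 rats highest. The replication score includes Clspn, whose controls rise from D0 to D180.

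From D0 to D3 the control rats, which inhaled filtered air, rose in 32 of the 50 genes and fell in 0, where 2.33% of all genes were called and 1.52% were called higher. These were 25 of the 33 mitosis genes, 5 of the 14 replication genes and 2 of the 3 transcription factors, with a median change of 1.04 over the 50 and 36 genes without overlap (2.89% of all genes). Top2a read 6.59, 6.65, 6.78, 6.86 and 7.22 in the D0 controls and 8.42, 8.72, 8.83, 8.87 and 8.91 in the D3 controls. The groups did not overlap, and the change of 1.93 (SE 0.14, adjusted p = 4.6e-13) was as large as the exposure difference at D0. Cdk1 rose by 1.40 (adjusted p = 4.8e-14) from 9.69, 9.72, 9.93, 9.99 and 10.16 to 11.24, 11.28, 11.29, 11.33 and 11.37. The D3 controls lay close together, far above the D0 controls. The largest other changes were those of Ccnb2 (1.78), Cdca3 (1.74), Kif11 (1.65) and Nusap1 (1.5), and among the replication genes those of Cdc6 (1.38), Rrm2 (1.36), Mcm5 (1.18), Tk1 (1.09) and Mcm3 (0.84). Both this comparison and the exposure difference at D0 use the same 5 D0 control rats, so they are not independent of each other.

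Set against the D3 controls instead, a comparison added after the values were seen, the exposed rats of D0 were higher in 1 of the 50 genes, Aurkb (0.77, SE 0.16, adjusted p = 6.9e-04), and lower in 0, where 1.98% of all genes were called. The median change was 0.22 for the mitosis genes and 0.07 for the replication genes. Top2a then differed by 0.01 (adjusted p = 0.99), Mcm5 by -0.03 (adjusted p = 0.97) and Mki67 by 0.21 (adjusted p = 0.52). Cenpf, at 0.56 (adjusted p = 7.1e-05), Rrm2, at 0.53 (adjusted p = 0.0061), and Cdk1, at 0.36 (adjusted p = 0.012), passed the adjusted p but not 1.5-fold. Against the D28 controls 17 of the 50 were higher and 1, Clspn, was lower, where 3.13% of all genes were called. The median change was then 0.55 for the mitosis and 0.33 for the replication genes. The day of these controls differs from that of the exposed rats, so day and exposure cannot be told apart there.

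**Figure D3:**
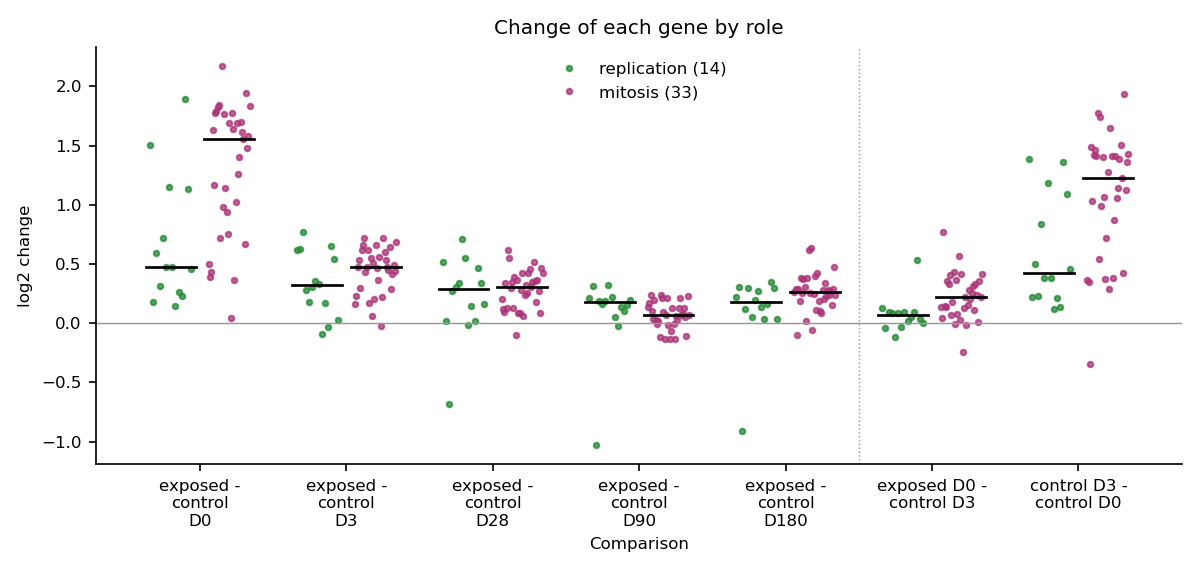
log2 change of each gene in the exposure comparison of each day, then exposed D0 rats against D3 controls and D3 controls against D0 controls, with replication genes in green and mitosis genes in purple. Lines are medians. The mitosis median is 1.56 against the D0 controls and 0.22 against the D3 controls, and the lone low green point at D28 to D180 is Clspn.

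Aurkb was the 1 gene of the 50 with a lower mean in the D3 than in the D0 controls. It read 9.12, 9.17, 9.56, 9.71 and 9.86 in the D0 controls and 8.93, 8.95, 9.06, 9.35 and 9.40 in the D3 controls. The D3 rats lay on the low side with overlap, and the change of -0.34 (adjusted p = 0.22) did not pass. At D3 the exposed rats read 9.2, 9.43, 9.72, 9.82 and 9.90, a change of 0.47 over their controls (adjusted p = 0.040) with overlap. The ribonucleotide reductase gene Rrm1, at 0.14 (adjusted p = 0.79), and the licensing gene Cdt1, at 0.22 (adjusted p = 0.63), also had no call between these controls. E2f1 changed by 0.42 (adjusted p = 5.5e-06), under 1.5-fold.

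Within each of the 4 slides that held D0 rats, with 1 or 2 rats of a group on a slide, the D3 controls exceeded the D0 controls by 0.90 to 1.16 on the mitosis score and by 0.50 to 0.76 on the replication score. On the same slides the exposed rats of D0 exceeded the D0 controls by 1.1 to 1.52 and by 0.47 to 0.80. Some other gene lists moved with this group as well. The T cell list (Cd3e, Cd3d, Cd3g, Cd5 and Cd8a, 5 of 5 tested) scored -0.66 to -0.25 in the D0 controls, -0.20 to 0.28 in the D0 exposed rats and -0.21 to 0.35 in the D3 controls, with 2 of 5 called higher in exposed rats at D0. The B cell list (3 of 4 tested) scored -1.11 to -0.14, -0.27 to 0.40 and -0.19 to 0.62 in the same groups, with 1 of 3 called. At D0, 4.28% of all genes were called and 2.77% were called higher. Of the immature thymocyte markers, Rag1, Rag2 and Dntt had means of 2.77 to 3.90 in the D0 groups, the low end of the scale, and 0 of 4 were called by limma, with 0 of 4 under an unadjusted p of 0.05. Macrophage (6 tested), alveolar type 1 (3) and type 2 (4), endothelial (3) and red cell (5) lists had 0 calls by limma at D0 (3, 2, 2, 2 and 3 under an unadjusted p of 0.05, as were 23.4% of all genes). Of 5 neutrophil genes, 2 were called higher and 3 were under an unadjusted p of 0.05 in limma. The others were not called, with Csf3r at 0.18 and Mmp8 (-0.27) and Fpr1 (-0.31) on the low side. On the endothelial score (Pecam1, Cdh5 and Vwf) the exposed rats of D0 were all lower, at -0.53 to -0.28 against -0.03 to 0.12 in the D0 controls and -0.09 to 0.15 in the D3 controls. This was not particular to the D0 controls, which overlapped the D3 controls. Exposed rats were also all lower than their controls on each later day, with differences of -0.33, -0.31, -0.18 and -0.18 from D3 to D180. On the alveolar type 2 score the exposed rats of D0 were all higher, at 0.05 to 0.36 against -0.22 to -0.02 and -0.14 to 0.09, the last of which they overlapped. Heat shock genes, a list of 6 added after the values were seen, scored 0.60 to 1.21 in the D0 controls, -0.30 to 0.01 in the D0 exposed rats and -0.51 to 0.23 in the D3 controls. A list of 8 glucocorticoid-induced genes, also added later, scored -0.13 to 0.67, -1.17 to 0.19 and -0.49 to 0.31. The part of these cells and programs in the values of the 50 genes was not tested.

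At D3 the exposed rats were again higher, in 13 of the 50 genes with 0 lower, where 3.48% of all genes were called and 1.98% were called higher. The median change was 0.44 over the 50, and 24 genes had no overlap between the groups with the exposed rats above, against 3.35% of all genes. Ccnb1 read 7.45, 7.82, 7.84, 7.90 and 7.90 in the 5 control rats and 8.28, 8.40, 8.46, 8.51 and 8.84 in the 5 exposed rats. All exposed rats were above the controls, and the change of 0.72 (SE 0.13, adjusted p = 1.5e-04) was less than that at D0. Rrm2 read 12.46, 12.49, 12.69, 12.74 and 12.74 in the 5 control rats and 13.00, 13.16, 13.26, 13.30 and 13.68 in the 5 exposed rats, a change of 0.66 (SE 0.13, adjusted p = 3.0e-04) without overlap. The other called mitosis genes were Melk (0.72), Ube2c (0.69), Ccna2 and Ect2 (0.66 each), Plk1 (0.64), Bub1b and Cdca3 (0.62 each) and Mki67 (0.60), and the other replication genes were Clspn (0.77, well above background in 1 of 5 controls and 2 of 5 exposed rats), Cdc6 and Cdt1 (0.62 each). Cdk1 changed by 0.55 (adjusted p = 4.2e-05), just under 1.5-fold, and 30 of the 50 genes passed on adjusted p alone, where 10.4% of all genes did. Without exposed rat 5, the highest on the mitosis score at 1.04, 8 were called, and without exposed rat 1, on another slide than the rest, 14. The Cdc6 call was lost without control rat 2, 3 or 5 or exposed rat 2 or 5. That of Cdt1 was lost without control rat 2 or 5 or exposed rat 2. That of Mki67 was lost without control rat 1, 2 or 5 or exposed rat 1, 2 or 3. Bub1b, Plk1, Cdca3, Ect2 and Rrm2 also lost their calls when certain single rats were left out. With normal-exponential background correction, which pulls dim signals together, 5 were called, and with the processed matrix the authors deposited, 7.

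Top2a, with a change of 1.94 at D0, was not called at D3. It read 8.42, 8.72, 8.83, 8.87 and 8.91 in the 5 control rats and 8.84, 9.14, 9.15, 9.19 and 9.52 in the 5 exposed rats. The lowest exposed rat fell within the control range, and the change of 0.41 (SE 0.14, adjusted p = 0.058) missed both limits. Pcna read 11.67, 11.70, 11.72, 11.91 and 12.03 in the 5 control rats and 11.81, 11.97, 12.00, 12.01 and 12.07 in the 5 exposed rats, again overlapping, with a change of 0.17 (adjusted p = 0.14). Tyms changed by 0.02 (adjusted p = 0.94) and E2f1 by -0.15 (adjusted p = 0.14), the latter against its direction at D0. E2f1 read 10.36, 10.36, 10.43, 10.44 and 10.48 in controls and 10.14, 10.16, 10.23, 10.37 and 10.45 in exposed rats. Its dimmer probe changed by 0.04 at D3 and 0.22 at D0, so the sign at D3 depended on the probe. Foxm1 changed by 0.26 (adjusted p = 0.21), Mybl2 by 0.43 (adjusted p = 0.027) and Birc5 by 0.54 (adjusted p = 4.5e-04), all under 1.5-fold.

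At D28 the genes called were 2, both higher, where 1.33% of all genes were called and 0.861% were called higher. Mcm5 read 7.27, 7.27, 7.35, 7.60 and 7.61 in the 5 control rats and 7.98, 8.0, 8.16, 8.23 and 8.28 in the 5 exposed rats, separate groups with a change of 0.71 (SE 0.13, adjusted p = 3.0e-04). Bub1b read 5.87, 6.02, 6.03, 6.31 and 6.60 in the 5 control rats and 6.36, 6.54, 6.74, 6.99 and 7.28 in the 5 exposed rats, ranges that overlap (change 0.62, SE 0.15, adjusted p = 0.0094). Bub1b was no longer called without control rat 1, 4 or 5 or exposed rat 4 or 5, and without exposed rat 1 the count was 6. Under normal-exponential correction or in the deposited matrix 0 were called, where Mcm5 changed by 0.51 and 0.54 and Bub1b by 0.34 and 0.37, all with adjusted p under 0.05 but under 1.5-fold. With no limit on fold 15 of the 50 passed, where 3.88% of all genes did, and 47 of the 50 changes were above 0 with a median of 0.30. The exposed rats lay above all controls in 10 genes, against 2.23% of all genes. Replication and mitosis genes had like medians here, 0.29 and 0.31, and Mcm6 (0.55, adjusted p = 1.2e-04) and Mcm4 (0.34, adjusted p = 0.0021) were among those that passed on adjusted p. So were Cdk1 (0.37, adjusted p = 0.018), Rrm2 (0.46, adjusted p = 0.030) and E2f1 (0.27, adjusted p = 0.0066), whereas Top2a (0.27), Mki67 (0.31), Ccnb1 (0.29), Birc5 (0.34), Foxm1 (0.20), Tyms (0.16), Pcna (0.14) and Aurkb (0.09) did not pass.

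The helicase subunits changed by unequal amounts on later days as well. At D3 Mcm4 (0.31, adjusted p = 0.0024), Mcm6 (0.33, adjusted p = 0.014) and Mcm2 (0.28, adjusted p = 0.011) passed on adjusted p, whereas Mcm5 (0.36, adjusted p = 0.067) and Mcm3 (0.18, adjusted p = 0.52) did not. At D28 Mcm6 read 7.46, 7.71, 7.81, 7.82 and 7.86 in the 5 control rats and 8.02, 8.19, 8.26, 8.41 and 8.51 in the 5 exposed rats. The exposed rats were all above the controls. Mcm2 then read 9.08, 9.25, 9.33, 9.35 and 9.40 in the 5 control rats and 9.40, 9.44, 9.62, 9.63 and 9.68 in the 5 exposed rats, a change of 0.27 (adjusted p = 0.029). Mcm7 stayed close to 0 on every day, between -0.09 and 0.14, with no adjusted p under 0.05 in the 5 exposure comparisons. Among controls, Mcm5, Mcm6 and Mcm4 changed from D3 to D28 by -0.75, -0.43 and -0.32 on the log2 scale (adjusted p = 2.0e-04, 0.0044 and 0.0079), of which the first passed 1.5-fold.

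At D90 and D180, 0 of the 50 were called higher and 1 was called lower on each day, Clspn, where 0.381% and 0.325% of all genes were called and 0.135% and 0.0793% were called lower. At an unadjusted p under 0.05, 7 and 21 of the 50 passed in limma, where 7.11% and 8.05% of all genes did. Cdk1 read 10.34, 10.43, 10.48, 10.53 and 10.70 in the 5 control rats and 10.59, 10.68, 10.80, 10.82 and 10.88 in the 5 exposed rats at D180, overlapping ranges with the exposed rats on the high side (change 0.25, adjusted p = 0.32). At D180 47 of the 50 changes were above 0, with a median of 0.24 and 9 genes whose exposed rats all lay above the controls (2.77% of all genes), and at D90 39 were, with a median of 0.10, compared with medians of 0.00 over all genes on both days. Among the 13 genes followed on every day, changes ran from -0.02 (Pcna) to 0.32 (Mcm5) at D90 and from -0.10 (Aurkb) to 0.37 (Ccnb1) at D180, with no adjusted p under 0.05. The mitosis score of exposed over control rats was 0.15 to 0.44 on the 3 slides at D180 and -0.06 to 0.24 at D90.

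**Figure D4:**
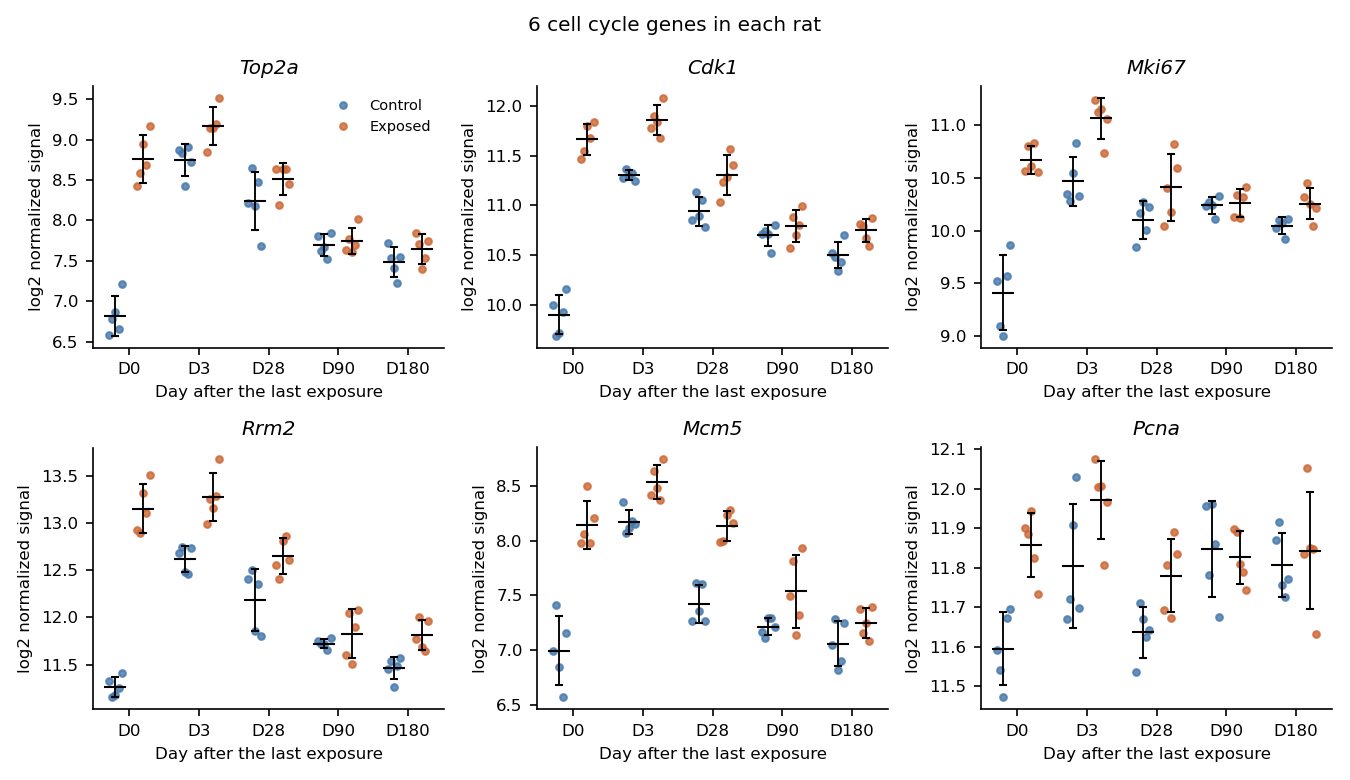
log2 normalized signal of Top2a, Cdk1, Mki67, Rrm2, Mcm5 and Pcna in every rat by day, with the mean and SD of 5 rats. Axes differ between panels. Exposed rats lie above controls at D0 in all panels, and Pcna moves over the narrowest range. The group means come close at D90 except for Mcm5, where the change is 0.32.

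Whether the exposure effect differed from that at D0 was tested directly, as the difference between the effects of both days. That difference was called below 0 at D3 in 24 of the 50 genes, at D28 in 28, at D90 in 30 and at D180 in 29. It was called above 0 in 0 genes. In either direction, 0.678%, 1.61%, 2.17% and 2.24% of all genes were called. Clspn was called at D28, D90 and D180 because its effect changed sign, from 0.59 at D0 to -0.68, -1.03 and -0.91. For Top2a the difference of effects was -1.53 at D3 and -1.67 at D28, and for Cdk1 -1.21 and -1.40. Since all these tests share the D0 rats, they carry the low D0 controls with them. With the D3 effect as the reference, added after the values were seen, 1 of the 50 genes was called at D28 (1.28% of all genes), 4 at D90 (1.92%) and 1 at D180 (2.19%).

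Among control rats, most of the 50 genes read lower at D28 than at D3, in 47 of 50 with a median of -0.31, and in 19 every D28 control lay below every D3 control (1.17% of all genes), but 1 was called lower, Mcm5 (-0.75, adjusted p = 2.0e-04), and 1 higher, Clspn, where 0.639% of all genes were called. Mcm5 read 8.07, 8.12, 8.15, 8.18 and 8.36 at D3 and 7.27, 7.27, 7.35, 7.60 and 7.61 at D28. The ranges did not touch. Without control rat 3 of D3 the count rose to 4 and without control rat 2 of D28 to 5. From D90 to D180, 0 were called, 6 passed an unadjusted p under 0.05 in limma (4.83% of all genes did), and 0.0198% of all genes were called. At D180 against D0, 9 were higher, where 5.51% of all genes were called and 2.99% were called higher. They were Clspn (2.46, well above background in 1 of 5 D0 controls), Ccnb2 (0.97), Kif20a and Nuf2 (0.75 each), Bub1b (0.70), Top2a (0.67), Ube2c (0.66), Mki67 (0.64) and Cdk1 (0.60), on other slides than the D0 rats. The D0 controls were thus below the D180 controls for these genes.

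More than 1 probe was present for 15 of the 50 genes, and at D0 the change of each of these dimmer probes was above 0 as well. The other probe of Top2a changed by 1.89 at D0 and that of Rrm2 by 2.05, against 1.94 and 1.89 for the probes used. Both further probes of Mki67 changed by 1.33 and 1.20, and that of Ccna2 by 1.67, against 1.26 and 1.79. Probes parted on later days. At D28 the other probe of Bub1, a dim one, changed by 0.83 against 0.13, and that of Top2a by -0.10 against 0.27. That second Top2a probe also read lower in exposed rats at D90 (-0.33) and D180 (-0.32), where the probe used read 0.06 and 0.16, so the sign of the small late Top2a differences depended on the probe.

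Clspn was the 1 gene of the 50 called lower in exposed rats on any day. It encodes claspin, which carries the replication stress signal from ATR to Chk1. In control rats it read 3.17, 3.93, 4.10, 4.68 and 4.78 at D0, 4.41, 4.45, 4.65, 4.74 and 4.89 at D3 and 5.91, 6.04, 6.15, 6.18 and 6.27 at D28. The D28 controls were all above the earlier ones (change from D3 1.48, SE 0.22, adjusted p = 1.2e-05). At D90 it read 5.78, 6.03, 6.18, 6.33 and 6.46 in the 5 control rats and 4.95, 5.03, 5.13, 5.13 and 5.38 in the 5 exposed rats. The exposed rats were all below the controls, by 1.03 (SE 0.22, adjusted p = 0.0056), and at D180 by 0.91 (adjusted p = 0.024), whereas at D3 they had been above, by 0.77 (adjusted p = 0.014), with 1 of 5 controls and 2 of 5 exposed rats well above background. The D180 call was lost without control rat 1, 2 or 5 or exposed rat 2 or 4. Both calls missed 1.5-fold with normal-exponential correction and in the deposited matrix. The D90 and D180 changes were -0.41 and -0.46 (adjusted p = 1.6e-04 and 1.4e-05) with normal-exponential correction and -0.47 and -0.52 (adjusted p = 5.0e-04 and 8.6e-05) in the deposited matrix. A second probe of the gene gave -1.28, -1.01 and -0.93 at D28, D90 and D180, against -0.68, -1.03 and -0.91 for the probe used. The signal is dim, well above background on 32 of 50 arrays and on 1 of 5 in the D0 and the D3 controls.

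Genes of the circadian clock changed sign between D3 and D28 too. The 8 clock genes were nearly all called in every exposure comparison (7 of 8 at D0 and D180, 8 of 8 at D3, D28 and D90). Of all genes, 4.28%, 3.48%, 1.33%, 0.381% and 0.325% were called from D0 to D180. Dbp and Nr1d1, output and repressor genes, were lower in exposed rats at D0 and D3 and higher at D28, D90 and D180. Arntl, the activator of the clock, had the sign of Clspn in all 5 exposure comparisons, at 1.26, 1.67, -1.47, -1.58 and -1.09, and in the controls of D28 against D3 it changed by 2.58. Dbp changed by -4.50 between the same controls. Wee1, the kinase that holds Cdk1 inactive, fell by 0.90 in exposed against control rats at D3 (adjusted p = 3.9e-09) and fell by 0.81 from D3 to D28 in controls (adjusted p = 2.4e-07). The labels do not give the hour at which lungs were taken, and the part of the hour in these values was not tested.

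**Figure D5:**
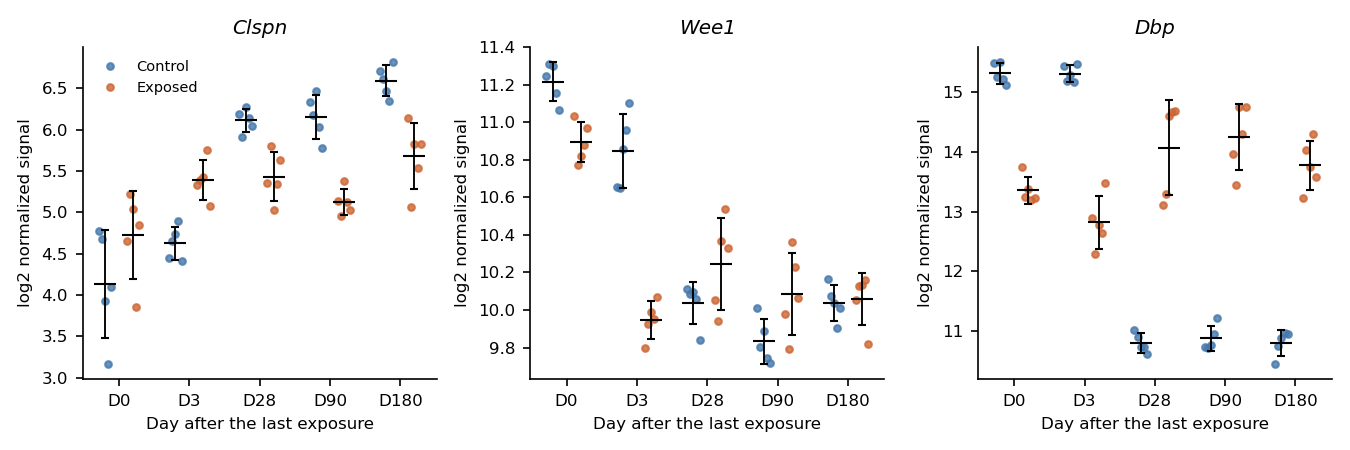
log2 normalized signal of Clspn, Wee1 and Dbp in every rat by day, with the mean and SD of 5 rats. Clspn controls rise from D0 to D180 and exposed rats lie below them from D28, where Dbp shows the opposite order of the groups.

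Further genes of these pathways were read from lists made by role, which were chosen with earlier results of these data known. Of 44 further mitosis genes tested, 33 were higher in exposed rats at D0 and 0 lower (median 1.27), with Depdc1 (2.53), Spc25 (1.99) and Ska1 (1.97) first, the latter a pair of kinetochore genes. Of 25 further replication genes, 13 were higher and 0 lower (median 0.82), led by the cyclin gene Ccne1 (1.44), the origin recognition gene Orc1 (1.37) and Mcm10 (1.33). At D3 4 of 44 and 1 of 25 were higher, at D28 1 and 4, and at D90 and D180 0 in both lists by limma, where 2 and 20 of 44 and 8 and 11 of 25 were under an unadjusted p of 0.05. From D0 to D3 in controls 30 and 12 rose. Of all genes, 2.77%, 1.98% and 0.861% were called higher at D0, D3 and D28, and 1.52% in controls from D0 to D3. In either direction, 4.28%, 3.48%, 1.33%, 0.381% and 0.325% were called from D0 to D180. A single called gene in a list of this size is near those shares. Upstream, the list of D-type cyclins, their kinases and further E2F factors had 0 of 9 called by limma in each of the 5 exposure comparisons, with 1 or 2 of 9 under an unadjusted p of 0.05 where 23.4%, 21.8%, 16.6%, 7.11% and 8.05% of all genes were from D0 to D180. Of 13 tested inhibitors and pocket protein genes 1 rose at D0, Rbl1 (0.82), and 1 fell at D3, Cdkn1c (by 0.61). Of 7 checkpoint and mitotic entry regulators 0 were called at D0 (4 under an unadjusted p of 0.05), Wee1 fell at D3 and Chek1, the target of the claspin branch, rose at D28 (0.77).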

How the data were processed

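Total RNA was labeled with Cy3 and hybridized to one-color Agilent rat arrays of 62976 spots. Per the file headers, spot intensity was extracted with Agilent Feature Extraction 11.0.1.1. The deposited intensity used was the processed signal, from which the software had subtracted background. Spots flagged as outliers were dropped, log2 values of a probe's spots averaged and arrays quantile normalized. Probes above the 95th percentile of 308 negative controls on at least 5 arrays were kept, and a gene was read by its brightest probe. The series matrix deposited by the authors served as an alternative. From its values it holds linear intensity, quantile normalized without background subtraction, with column medians of 408 to 411, and log2 was taken here. limma 3.58.1 (R 4.3.3) fitted 10 group means over 50 arrays and p-values were adjusted by Benjamini-Hochberg over 25208 genes. The fit was tested on simulated data. The 50 genes and all lists were chosen with earlier results of these data known. Genes are named if called, up to the 15 largest per comparison, or if among 13 followed throughout, with the rest given to account for each of the 50, and at most 3 per other list. The number of arrays limits the precision, and median processed signals of arrays ran from 198 to 473. Replicate numbers did not pair the rats. Alternatives were another scaling, background correction, probe filter, probe choice, slide or replicate block, fewer arrays and each rat left out.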

Additional observations from a re-analysis of the deposited data

Results flagged for a closer look

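The exposure effect differed from that at D0 in 24 of the 50 genes at D3 by the interaction test in limma, with 28, 30 and 29 on the following days, all toward a smaller effect. In the order D3, D28, D90 and D180, the difference of log2 changes was -1.53, -1.67, -1.89 and -1.79 for Top2a. It was -1.21, -1.40, -1.67 and -1.52 for Cdk1, and -1.11, -1.53, -1.83 and -1.45 for Ccnb1. It was -1.10, -1.29, -1.53 and -1.34 for Birc5, and -1.24, -1.43, -1.79 and -1.54 for Rrm2. Mki67 differed at D28, D90 and D180, by -0.95, -1.24 and -1.05. Mcm5 differed at D3, D90 and D180, by -0.80, -0.83 and -0.96. Clspn differed at D28, D90 and D180, by -1.27, -1.62 and -1.5. Its effect changed sign, from 0.59 at D0 to -0.68, -1.03 and -0.91 on those days. All of these tests use the D0 controls, the group with the lowest mitosis score. Clspn was also higher in exposed rats at D3, by 0.77, so its change of sign is also seen from D3 to D28.

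Single rats stood apart in 5 of 160 groups of 5 rats examined by Dixon's test, where chance gives about 1 in 20. Control rat 3 of D3 was lowest for Ccnb1, at 7.449 with the next rat at 7.82. Control rat 3 of D28 was lowest for E2f1, at 9.947 with the next at 10.07. Control rat 5 of D90 was highest for Foxm1, at 8.385 against 8.13. Exposed rat 3 of D90 was highest for Aurkb, at 10.20 against 9.70. Exposed rat 5 of D90 was highest for E2f1, at 10.25 against 10.07.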

How the results depend on the processing

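The D0 and control D3 against D0 counts stayed within 1.5 times of 35 and 32 under every planned setting, at 30 to 44 and 26 to 40. No called change of a named gene reversed its sign. Changes that were not called were not followed, and the late Top2a changes and the E2f1 change at D3 had the opposite sign with the other probe. Normal-exponential correction with an offset, which shrinks dim signals by construction, moved counts to 5 at D3, 0 on each later day, 0 for controls of D28 against D3 and 4 for D180 against D0. It moved the mitosis median to 1.00 at D0, 0.80 for controls of D3 against D0 and 0.22 for D180 against D0, and the replication median to 0.086 at D180 and 0.31 for controls of D3 against D0. Series matrix values gave 7 at D3, 0 on each later day, 1 for controls of D28 against D3 and 5 for D180 against D0, mitosis medians of 1.05 at D0 and 0.92 for controls of D3 against D0, and replication medians of 0.10 at D180 and 0.32. Scaling to the 75th percentile gave 15 for controls of D180 against D0, with medians of 0.15 (replication) and 0.54 (mitosis), and a replication median of 0.095 at D180. The mean of all probes gave 5 at D28 and 0 at D180, and a replication median of -0.39 for controls of D28 against D3. Only the arrays compared gave 1 at D28 and 0 at D180. With slide as a block the mitosis median for controls of D180 against D0 was 0.53. No fold limit gave 30 at D3, 15 at D28, 13 for controls of D28 against D3 and 20 for D180 against D0. With other references, added after the values were seen, the D0 count was 1 (D3 controls) and 18 (D28 controls), and the interaction counts were 1 (D28), 4 (D90) and 1 (D180). Where no construction is named the cause was not tested.

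With each rat left out in turn, counts ran from 33 to 36 at D0, 8 to 17 at D3 (lowest without exposed rat 5), 1 to 6 at D28, 0 to 1 at D180, 30 to 32 for controls of D3 against D0, 2 to 5 for D28 against D3 and 6 to 12 for D180 against D0. At D90 each gave 1. The mitosis median of controls at D3 against D0 ran from 1.16 to 1.31 and the replication median at D28 against D3 from -0.35 to -0.24.

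The replicate number as a block gave 35, 13, 2, 1 and 1 from D0 to D180, 23, 26, 30 and 29 interactions, and 32, 2, 0 and 9 among controls. The numbers do not pair the rats: deviations from group means correlated by -0.34 to 0.45 (median -0.03) over 25 same-numbered pairs. Depth of signal limits Hmmr, Cenpe, Cdca8, Clspn, Cdt1 and Cdc6, each well above background on fewer than 42 arrays.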
